A study of Mus musculus with 8 samples.

Results

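The interleukin 1 family comprises secreted signals of innate immunity and the receptors that read them, and 10 of its genes were followed here in lungs of newborn and unborn mice that lack Wfdc2, an inhibitor of proteases made by airway epithelium. The members were 4 ligands (Il1a, Il1b, Il18 and Il33), 2 receptor antagonists (Il1rn and Il1f5), the receptors Il1r1 and Il1rl1, their shared partner Il1rap and the decoy receptor Il1r2. They were taken by name from the 25965 genes with values, and all 10 were found. The list was selected on results of the genotype comparison at postnatal day 1.5 (P1.5), whose differences in log2 RPKM were known. That comparison is therefore given as a description without a test, as is the change with birth in mutants, which uses the same mutant libraries. The change with birth in controls uses the same control libraries, so its p-values for members are printed from the fit and read as a description.

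Total lung RNA was sequenced from Wfdc2+/+ mice and from Wfdc2 GFP/GFP mice, late in gestation (E18.5) and after birth (P1.5), with 2 libraries in each of the 4 groups and 8 in all. Both Wfdc2 alleles of the GFP/GFP mice carry a germline knock-in of a GFP cassette that ends its expression, and the +/+ mice were littermate controls. The labels give no litter, strain or pooling of animals, so the spread between libraries of a group may be partly technical. Whole lung was used, so fewer cells of a type and less RNA per cell cannot be told apart in any value below.

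Members of the family are alarm signals. IL-1α, encoded by Il1a, and IL-1β, encoded by Il1b, bind the same receptor, IL1R1, which pairs with IL1RAP and signals through MYD88 to NF-κB, whereas the antagonist encoded by Il1rn occupies that receptor without signalling and IL1R2 binds the ligands without a signalling domain. IL-18 and IL-33 use related receptors, and in lung the epithelium is a known store of both. IL-1β and IL-18 are made as precursors that caspase-1 cleaves, so mRNA is not a measure of active protein.

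Depth differed with stage, with 29246202 to 37209332 reads recovered per library at E18.5 and 19457646 to 29257003 at P1.5. The limit of detection was taken as 3 reads, which stood for 0.0806 to 0.154 RPM (reads of a gene per 1000000 reads of its library). Wfdc2 itself had 8038 to 32845 reads in the +/+ libraries and 0 to 12 in the GFP/GFP libraries, as the labels have it. Surfactant and other lung epithelial markers (12 genes) summed to 10221 to 83722 RPM, so lung epithelium was present in every library. A pair of libraries stood apart. Replicate 1 of the E18.5 GFP/GFP group had the lowest epithelial sum (10221 RPM, against 22011 to 27413 in the other E18.5 libraries) and the lowest macrophage and monocyte sum (215 RPM, against 550 to 800). Replicate 1 of the P1.5 +/+ group had the highest neutrophil sum (1903 RPM) and the lowest mesenchymal and endothelial sum (1046 RPM, against 1872 to 5077 in the other P1.5 libraries). Replicate 1 of every group carried Xist (4121 to 90980 reads, against 1 to 13 in replicate 2) and replicate 2 carried the Y-linked Ddx3y (972 to 2175 reads, against 0 to 3), so in each group 1 library was from a female and 1 from a male.

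Il1a, Il1b and Il1rn were the 3 members whose P1.5 GFP/GFP libraries lay above the P1.5 +/+ libraries without overlap. All of them lie on chromosome 2, as does Il1f5, whose P1.5 genotypes overlapped. The 250 bases before their first RefSeq start (GRCm38.p6, the mm10 build) are shown because these members had the largest differences, read 5′ to 3′ along the transcribed strand, with a match to the AP-1 pattern in capitals.

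Il1a promoter, minus strand, chr2:129309973-129310222: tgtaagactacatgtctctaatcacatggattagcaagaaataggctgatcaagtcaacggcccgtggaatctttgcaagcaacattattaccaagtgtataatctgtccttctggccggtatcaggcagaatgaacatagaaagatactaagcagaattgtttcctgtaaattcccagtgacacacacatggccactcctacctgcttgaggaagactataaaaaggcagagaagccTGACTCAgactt

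Il1b promoter, minus strand, chr2:129371140-129371389: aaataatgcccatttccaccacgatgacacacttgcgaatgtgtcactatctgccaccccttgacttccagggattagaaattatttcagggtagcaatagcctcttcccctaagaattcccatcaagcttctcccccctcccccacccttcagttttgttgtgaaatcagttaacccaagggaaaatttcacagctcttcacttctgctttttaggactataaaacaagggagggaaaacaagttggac

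Il1rn promoter, plus strand, chr2:24336610-24336859: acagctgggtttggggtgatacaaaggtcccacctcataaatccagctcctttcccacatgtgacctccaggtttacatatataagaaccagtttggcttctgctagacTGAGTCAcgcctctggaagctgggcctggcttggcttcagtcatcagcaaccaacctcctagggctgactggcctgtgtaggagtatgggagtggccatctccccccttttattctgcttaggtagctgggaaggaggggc

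Both strands were searched for an AP-1 pattern (TGANTCA, which reads alike on both strands and was counted once), a C/EBP pattern (TTGCNNAA) and the NF-κB consensus. The Il1a window held TGACTCA from 12 to 6 bases before the start, and the Il1rn window TGAGTCA from 141 to 135 bases before it. The Il1b window held none of the 3 patterns, and no printed window held a second match that could overlap the first. Of 32536 windows of the same length, 6.73% held the AP-1 pattern, 9.57% the C/EBP pattern and 3.92% the NF-κB consensus. All 10 members had at least 1 such window, 16 in all. Elsewhere in the family C/EBP matches stood before the starts of Il1f5, Il1rl1 and Il1r1 and before the second start of Il33, and an NF-κB match before the second start of Il1r1. The searches describe letters and no binding was measured.

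**Figure D1:**
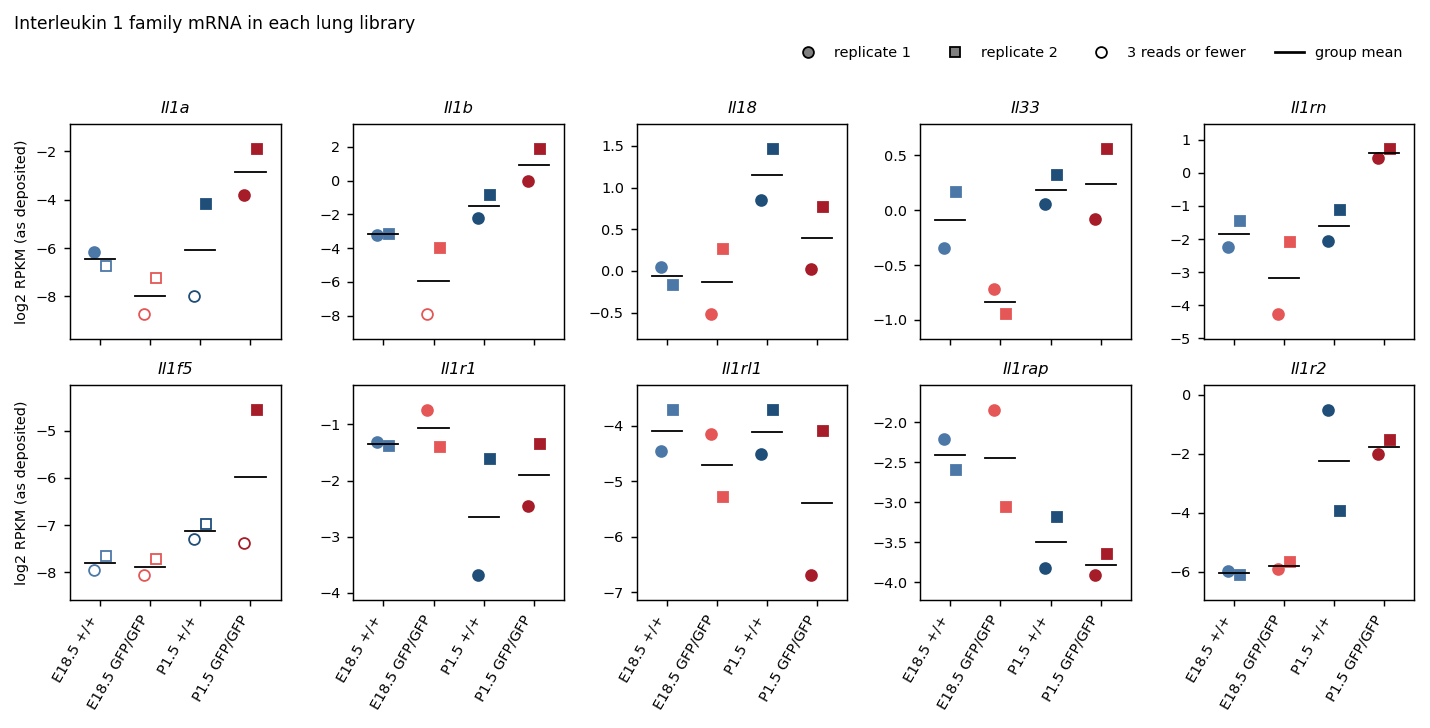
Deposited log2 RPKM (RPM divided by the kilobases of the gene span) of each member in the 8 libraries, with circles for replicate 1, squares for replicate 2, open symbols for 3 reads or fewer, a line at each group mean and a scale of its own in each panel. The P1.5 GFP/GFP libraries of Il1a, Il1b and Il1rn sit above every other library, while Il33 and Il18 stay within a narrow range.

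The family spanned a wide range of levels. Levels were set side by side in RPM divided by kilobases of exon. The reads come from the whole gene span, so intron reads can raise this value in genes with long introns. The span was 24.4 times the exon length for Il1r2 and 17.2 for Il1r1, against 3.4 for Il1b and 2.6 for Il1rn. On this scale Il33 (mean 11.8 ± 2.91, SD, n = 2), Il18 (8.85 ± 0.948, SD, n = 2) and the receptor Il1r1 (6.74 ± 0.205, SD, n = 2) led in E18.5 +/+ lungs. The partner receptor Il1rap stood at 2.49 ± 0.468 (SD, n = 2) and the antagonist Il1rn at 0.765 ± 0.287 (SD, n = 2). Il1b (0.376), Il1r2 (0.367) and Il1rl1 (0.316) followed with overlapping libraries, Il1a was at 0.0612 and Il1f5 at 0.00357. Neighbours from Il33 down to Il1b did not overlap in that group.

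The order was different in P1.5 GFP/GFP lungs. There Il33 (14.9 ± 4.59, SD, n = 2), Il18 (12.5 ± 4.45, SD, n = 2), Il1b (7.95 ± 6.53, SD, n = 2), Il1r2 (7.23 ± 1.60, SD, n = 2), Il1r1 (4.95 ± 2.59, SD, n = 2) and Il1rn (4.01 ± 0.510, SD, n = 2) followed each other, each overlapping the next. Il1rap (0.954), Il1a (0.887), Il1rl1 (0.176) and Il1f5 (0.0304) lay below them. Il1b thus ranked 3 of 10 in that group and 6 of 10 in E18.5 +/+ lungs. In P1.5 +/+ lungs Il18 led (20.9 ± 6.24, SD, n = 2), above Il33 (14.1 ± 1.80, SD, n = 2) without overlap, and Il1r2 came next (9.36 ± 11, SD, n = 2) on the strength of 1 library. In E18.5 GFP/GFP lungs Il18 (8.71 ± 3.26, SD, n = 2), Il1r1 (8.40 ± 2.65, SD, n = 2) and Il33 (6.95 ± 0.798, SD, n = 2) overlapped at the top. The order depends on the length used: on the deposited scale, which divides by the whole gene span with introns, Il1b was first in P1.5 GFP/GFP lungs and Il1rn second.

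**Figure D2:**
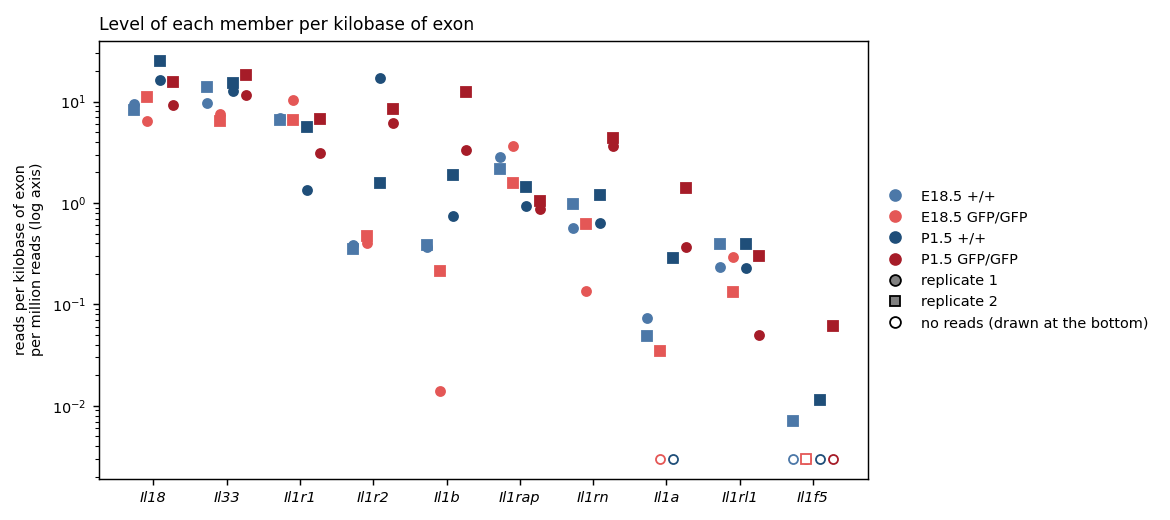
RPM per kilobase of exon (log axis) of the 10 members in each library, ordered by their mean over the 8 libraries, with colours for the 4 groups, circles for replicate 1, squares for replicate 2 and open symbols at the bottom for libraries without reads. Il18 (6.40 to 25.3) and Il33 (6.39 to 18.2) hold a narrow range, whereas Il1b runs from 0.0141 to 12.6.

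Differences between groups were taken as differences of mean log2 RPKM from a limma fit over 15627 genes, with standard errors (SE) from a spread shared by the 4 groups. Genes averaging 0.05 RPKM or more across the libraries were fitted, which kept 8 members. Il1rl1 (mean 0.0489 RPKM) and Il1f5 (mean 0.010 RPKM) fell below that level, and Il1a (mean 0.0536 RPKM) passed through its P1.5 GFP/GFP libraries, since its mean over the other libraries was 0.0151 RPKM, so it is given no test in any comparison. P-values were adjusted by the Benjamini-Hochberg method over all genes tested, with a threshold of 0.05. An exact permutation test with 2 libraries a side has 0.33 as its smallest p, so none was used.

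Before birth, the comparison asks whether loss of Wfdc2 altered the family in lungs that had not yet breathed. At E18.5 none of the 7 members that pass the filter without the P1.5 GFP/GFP libraries as well passed the test (adjusted p = 0.9998 for each, limma with Benjamini-Hochberg adjustment), and none had an unadjusted p under 0.05. Over all genes 0.0192% were called, 3 of 15627, all of them lower in GFP/GFP, while 590 had an unadjusted p under 0.05 in the higher direction and 93 in the lower. Of the 10 members 8 had a lower mean in GFP/GFP lungs, and 7 without replicate 1 of the E18.5 GFP/GFP group, while 59.2% of all genes had a higher mean. Il1b, Il33 and Il1a were lower without overlap (9.46% of all genes were), and Il1r2 was higher without overlap (26.5% of all genes were). The median difference of the 10 members was -0.36, against 0.09 for all genes. Without replicate 1 of the E18.5 GFP/GFP group, Il18 (0.32), Il1r1 (-0.048), Il1rap (-0.65) and Il1a (-0.79) had other values than the -0.07, 0.28, -0.05 and -1.54 found with it.

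After birth the means pointed the other way. At P1.5 7 of the 10 members had a higher mean in GFP/GFP lungs, and 5 did without replicate 1 of the P1.5 +/+ group or without replicate 2 of the P1.5 GFP/GFP group. Of all genes 38.8% had a higher mean. Il1a, Il1b and Il1rn were higher without overlap (12.6% of all genes were) and Il18 was lower without overlap (26.9% of all genes were). The median difference of the 10 members was 0.60, against -0.20 for all genes. Of all genes 0.0128% were called in this comparison, 2 of 15627 and both lower, with 564 higher and 1146 lower at an unadjusted p under 0.05. No member is tested here, because this comparison was known when the members were chosen.

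**Figure D3:**
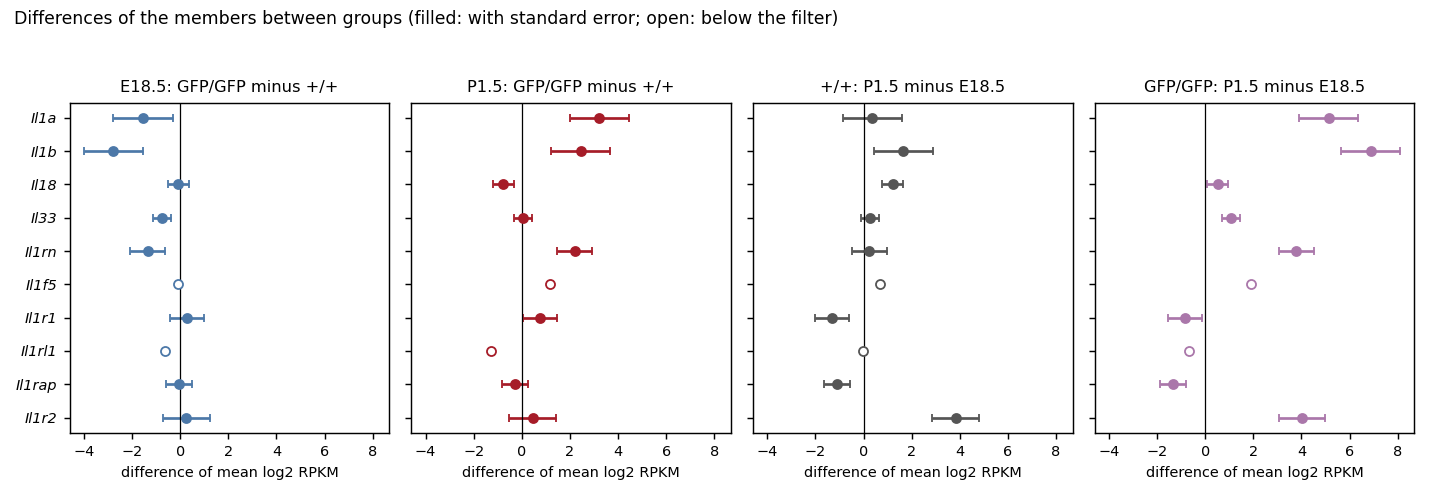
Difference of mean log2 RPKM of each member in 4 comparisons, each from 2 libraries against 2, with bars for the SE of the fit and open circles without bars for Il1f5 and Il1rl1, which lay below the filter. Il1a, Il1b and Il1rn lie left of 0 in the E18.5 panel and right of 0 in the P1.5 panel.

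Among the ligands, Il1b (mm10 chr2:129364570-129371139, minus strand) had the widest range. It had 24 and 23 reads in the E18.5 +/+ libraries, 1 and 12 in E18.5 GFP/GFP, 31 and 70 in P1.5 +/+, and 147 and 701 in P1.5 GFP/GFP. The P1.5 libraries stood at 1.43 and 3.6 RPM in +/+ and at 6.35 and 24.0 RPM in GFP/GFP, so both mutant libraries lay above both controls, and they differed from each other more than the controls did. The difference at P1.5 was 2.44 (SE 1.22) on the log2 RPKM scale, or 5.44-fold. It was 1.49 without replicate 2 of the P1.5 GFP/GFP group, the library with 701 reads, and 1.78 without replicate 1 of the P1.5 +/+ group. At E18.5 both GFP/GFP libraries were lower, with a difference of -2.77 (SE 1.22, unadjusted p = 0.0531, adjusted p = 0.9998, limma). That value was -0.81 without the replicate 1 library that had a single read. Between E18.5 and P1.5 Il1b differed by 1.66 (SE 1.22, adjusted p = 0.478, limma) in +/+ lungs and by 6.88 (SE 1.22) in GFP/GFP lungs.

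Il1a (mm10 chr2:129299610-129309972, minus strand), whose product is held in cells and released on injury, was scarce. Its reads were 5 and 3 in E18.5 +/+, 0 and 2 in E18.5 GFP/GFP, 0 and 11 in P1.5 +/+, and 17 and 81 in P1.5 GFP/GFP. P1.5 GFP/GFP was the only group with more than 3 reads in both libraries. At P1.5 the GFP/GFP libraries were at 0.734 and 2.77 RPM, and the +/+ libraries at 0 and 0.565 RPM. The difference was 3.22 (SE 1.24), or 9.31-fold, and the ratio of arithmetic mean RPKM was 5.77. It was 1.33 without the P1.5 +/+ library that had no reads and 5.10 without the other one. At E18.5 the GFP/GFP libraries held 2 reads in all, and the ratio to +/+ was 0.247, with a 95% counting interval of 0.026 to 1.24 (difference of mean log2 RPKM: -1.54). In +/+ lungs the P1.5 to E18.5 ratio of reads was 2.19, with a 95% counting interval of 0.803 to 6.27 (difference of mean log2 RPKM: 0.37).

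Reads on Il1a and Il1b may include some of genes on the other strand, since the use of strand in counting is not stated. Gm14023 overlaps Il1a over 8217 bases and had 6 to 89 reads of its own, and Gm14047 overlaps Il1b over 1243 bases and had 2 to 22 reads.

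Il33 (mm10 chr19:29925114-29960718, plus strand), a nuclear alarmin of epithelial and stromal cells, was abundant and steady. It had 964 and 1243 reads in E18.5 +/+, 807 and 539 in E18.5 GFP/GFP, 804 and 863 in P1.5 +/+, and 781 and 1534 in P1.5 GFP/GFP. In RPM the E18.5 mutants (21.7 and 18.4) lay below their controls (28 and 39.9) and the P1.5 genotypes overlapped. The E18.5 difference was -0.74 (SE 0.38), 1.67-fold lower, with an unadjusted p of 0.0846 and an adjusted p of 0.9998 (limma), and it stayed between -1.0 and -0.49 with each E18.5 library left out. At P1.5 the difference was 0.05 (SE 0.38), between -0.27 and 0.37 with each library left out, so the P1.5 libraries gave no steady direction for Il33. The change with birth in +/+ was 0.28 (adjusted p = 0.691, limma).

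Il18 (mm10 chr9:50575273-50581837, plus strand), which encodes an inducer of interferon-γ, was the ligand whose P1.5 mean was lower in mutants. Its reads were 234 and 182 in E18.5 +/+, 170 and 230 in E18.5 GFP/GFP, 256 and 352 in P1.5 +/+, and 154 and 326 in P1.5 GFP/GFP. At P1.5 the +/+ libraries (11.8 and 18.1 RPM) lay above the GFP/GFP libraries (6.65 and 11.1 RPM), by a narrow gap. The difference was -0.76 (SE 0.43), 1.70-fold lower, between -1.14 and -0.39 with each library left out. At E18.5 it was -0.07 (SE 0.43, adjusted p = 0.9998, limma). From E18.5 to P1.5 Il18 was 2.32-fold higher in +/+ lungs (1.21, SE 0.43, unadjusted p = 0.0231, adjusted p = 0.373, limma), without overlap, and 0.52 higher on the log2 scale in GFP/GFP lungs. The counted span differs from the GENCODE gene, which starts upstream at position 50554827, so reads of upstream exons may be missing.

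Of the antagonists, Il1rn (mm10 chr2:24336853-24351494, plus strand) had P1.5 mutant libraries that stood close together. It had 107 and 167 reads in E18.5 +/+, 28 and 100 in E18.5 GFP/GFP, 76 and 130 in P1.5 +/+, and 468 and 708 in P1.5 GFP/GFP. The P1.5 GFP/GFP libraries, at 20.2 and 24.2 RPM, lay above the other 6, which ran from 0.752 to 6.68 RPM. At P1.5 the difference was 2.19 (SE 0.72), or 4.57-fold, and between 1.73 and 2.66 with each library left out. At E18.5 the groups overlapped, with a difference of -1.35 (SE 0.72, unadjusted p = 0.101, adjusted p = 0.9998, limma), which was -0.26 without replicate 1 of the GFP/GFP group. In +/+ lungs the change with birth was 0.24 (adjusted p = 0.869, limma), and in GFP/GFP lungs it was 3.79 (13.8-fold).

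Il1f5 (mm10 chr2:24276954-24283426, plus strand), the antagonist of the IL-36 receptor, was near the limit of detection. It had 0 and 1 reads in E18.5 +/+, 0 and 0 in E18.5 GFP/GFP, 0 and 1 in P1.5 +/+, and 0 and 8 in P1.5 GFP/GFP. Only 1 library exceeded 3 reads. The P1.5 ratio of GFP/GFP to +/+ was 6.28, with a 95% counting interval of 0.842 to 279, so a difference was not detectable at this depth.

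The balance of antagonist and agonists can be read within a library, free of its total. Per kilobase of exon, the ratio of Il1rn to Il1a and Il1b together was 1.28 and 2.22 in E18.5 +/+ and 9.65 and 2.47 in E18.5 GFP/GFP, where the 9.65 rests on a single Il1b read. It was 0.845 and 0.556 in P1.5 +/+ and 0.987 and 0.313 in P1.5 GFP/GFP. All 4 E18.5 libraries were above 1 and all 4 P1.5 libraries below it, and at P1.5 the genotypes overlapped. Intron reads are counted in these genes, so the side of 1 on which a library falls can depend on the scale. The agonists and their antagonist were thus both higher in the P1.5 mutants, with no separation of the genotypes in their ratio.

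Among the receptors, Il1r1 (mm10 chr1:40225080-40316198, plus strand), the signalling receptor of IL-1, had 1258 and 1091 reads in E18.5 +/+, 2027 and 1012 in E18.5 GFP/GFP, 153 and 579 in P1.5 +/+, and 383 and 1052 in P1.5 GFP/GFP. In RPM it was at 36.5 and 35.0, 54.5 and 34.6, 7.05 and 29.8, and 16.5 and 36.0 in these groups. The genotypes overlapped at both stages, and replicate 1 was below replicate 2 in both P1.5 groups. The differences were 0.28 (SE 0.71, adjusted p = 0.9998, limma) at E18.5 and 0.75 (SE 0.71) at P1.5, the latter -0.29 without replicate 1 of the P1.5 +/+ group. In +/+ lungs both P1.5 libraries were lower than both E18.5 libraries (-1.30, SE 0.71, adjusted p = 0.451, limma). This was -0.27 without P1.5 replicate 1, and -2.34 without P1.5 replicate 2, so a single library decides the size.

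Il1rap (mm10 chr16:26581704-26730117, plus strand), the shared partner that completes the receptors of IL-1 and IL-33, had 1103 and 764 reads in E18.5 +/+, 1536 and 521 in E18.5 GFP/GFP, 228 and 318 in P1.5 +/+, and 228 and 346 in P1.5 GFP/GFP. In RPM the E18.5 libraries ran from 17.8 to 41.3 and the P1.5 libraries from 9.84 to 16.3, so the stages did not overlap. The change with birth in +/+ was -1.10 (SE 0.54, adjusted p = 0.441, limma), and in GFP/GFP it was -1.33 (SE 0.54). Genotype differences were -0.05 (SE 0.54, adjusted p = 0.9998, limma) at E18.5 and -0.28 (SE 0.54) at P1.5, and both turned sign with a library left out. Gm20319, on the other strand, overlaps Il1rap over 15672 bases and had 0 to 2 reads.

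Il1rl1 (mm10 chr1:40429570-40465415, plus strand), the IL-33 receptor ST2 of mast cells and type 2 lymphoid cells, had 56 and 85 reads in E18.5 +/+, 75 and 27 in E18.5 GFP/GFP, 34 and 53 in P1.5 +/+, and 8 and 61 in P1.5 GFP/GFP. The genotypes overlapped at both stages, and the lowest library was replicate 1 of the P1.5 GFP/GFP group at 0.345 RPM. It lay just below the filter and was not fitted, and the mean differences were -0.63 at E18.5 and -1.28 at P1.5. Mast cell and basophil markers (9 genes) summed to 109 to 137 RPM at E18.5, to 109 and 256 RPM in P1.5 +/+ and to 147 and 180 RPM in P1.5 GFP/GFP, with Ms4a2, a defining gene of these cells, at 3 reads or fewer in every library. Type 2 lymphoid markers (7 genes) summed to 53.4 to 66.9 RPM at E18.5, to 94.6 and 131 RPM in P1.5 +/+ and to 72.6 and 119 RPM in P1.5 GFP/GFP. Kit was the largest part of the mast cell sum at E18.5 (58.5 to 112 RPM). Tpsb2, Cma1 and Mcpt4 were higher in every P1.5 library than in every E18.5 library. Rora was the largest part of the type 2 lymphoid sum (35.3 to 109 RPM), except in replicate 2 of the P1.5 GFP/GFP group. There Areg was larger (71.7 RPM). Il7r, Il2ra and Icos lay below the filter. Both sums thus follow single genes and are a weak guide to these cells. The part of these cells in the Il1rl1 values was not tested.

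The decoy receptor Il1r2 (mm10 chr1:40084768-40125219, plus strand), carried by neutrophils and macrophages among other cells, separated the stages more widely than the genotypes. It had 22 and 18 reads in E18.5 +/+, 25 and 23 in E18.5 GFP/GFP, 616 and 51 in P1.5 +/+, and 234 and 405 in P1.5 GFP/GFP. The E18.5 libraries lay between 0.577 and 0.786 RPM, a narrow band in which both GFP/GFP libraries stood above both +/+ libraries. The P1.5 libraries were all higher, at 28.4 and 2.62 RPM in +/+ and 10.1 and 13.8 RPM in GFP/GFP, where the controls enclose the mutants. In +/+ lungs Il1r2 was 14.2-fold higher at P1.5 than at E18.5 (3.83, SE 0.98, unadjusted p = 0.0046, adjusted p = 0.219, limma), the lowest p among the members. The value was 2.11 without P1.5 replicate 1 and 5.55 without P1.5 replicate 2. In GFP/GFP lungs it was 16.3-fold higher (4.02, SE 0.98). At P1.5 the genotype difference was 0.46 (SE 0.98), while the ratio of arithmetic mean RPKM was 0.773, so its direction depended on the way of averaging. At E18.5 it was 0.26 (SE 0.98, adjusted p = 0.9998, limma). The counted span starts within the GENCODE gene, which begins upstream at position 40074079.

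The ratio of decoy to signalling receptor, Il1r2 over Il1r1 per kilobase of exon within a library, was 0.0560 and 0.0528 in E18.5 +/+ and 0.0395 and 0.0728 in E18.5 GFP/GFP. It was 12.9 and 0.282 in P1.5 +/+ and 1.96 and 1.23 in P1.5 GFP/GFP, so all 4 P1.5 libraries exceeded all 4 E18.5 libraries. Intron reads are counted in both genes, so the size of this ratio depends on the scale. The neutrophil markers (12 genes) moved with stage in the same way. They summed to 98.2 and 95.3 RPM in E18.5 +/+, 60.5 and 67.3 in E18.5 GFP/GFP, 1903 and 682 in P1.5 +/+, and 1472 and 939 in P1.5 GFP/GFP, and the library with the most Il1r2 reads had the highest sum. Most of each sum was S100a8 and S100a9 (771 and 762 RPM in that library), and other markers disagreed between the P1.5 +/+ libraries. Camp (102 against 34.3 RPM) and Retnlg (102 against 17.2 RPM) were higher in replicate 1, while Csf3r (5.80 against 17.7 RPM) and Ltf (51.6 against 86.5 RPM) were lower there. Mesenchymal and endothelial markers (8 genes) summed to 3758 to 4658 RPM at E18.5, 1046 and 5077 in P1.5 +/+, and 1872 and 2688 in P1.5 GFP/GFP, and the library with the least Il1r1 had the lowest sum. The part of these cells in Il1r2 and Il1r1 was not tested.

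**Figure D4:**
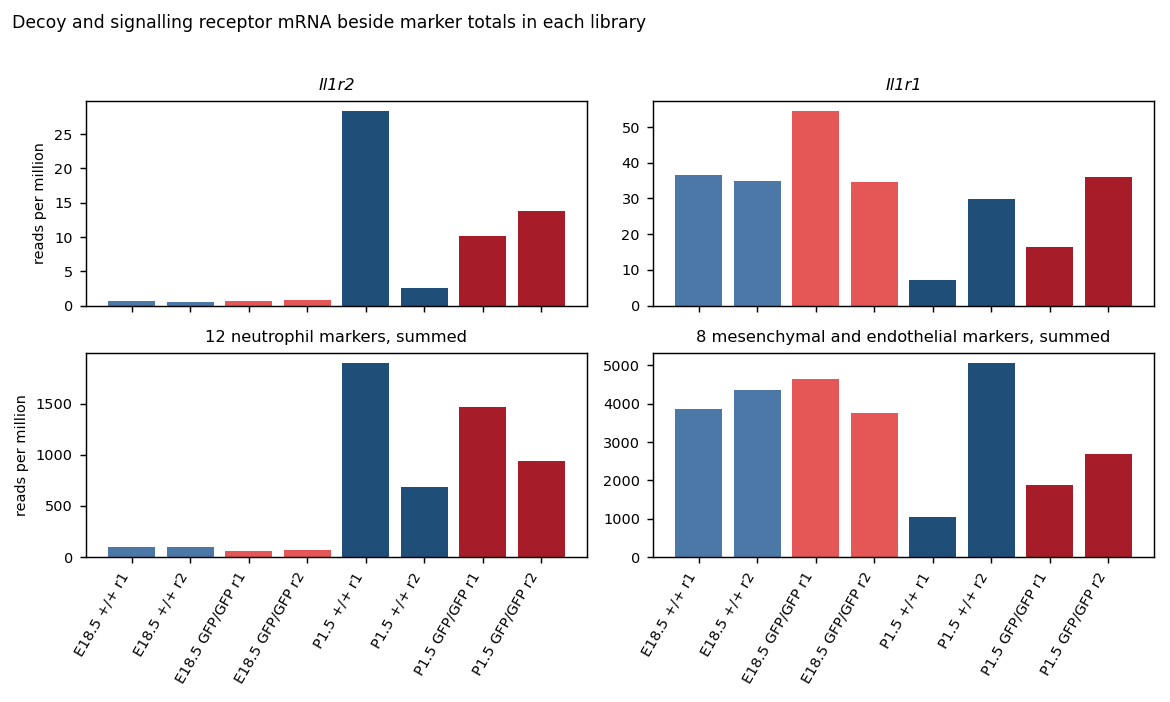
RPM of Il1r2 and Il1r1 (top) and of the summed neutrophil and summed mesenchymal and endothelial markers (bottom) in each library, 1 bar per library, r1 and r2 being the replicates. Replicate 1 of the P1.5 +/+ group has the highest Il1r2 (28.4 RPM) and neutrophil bars and the lowest Il1r1 (7.05 RPM) and mesenchymal bars.

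The same neutrophil sums stand beside Il1a, Il1b and Il1rn. At P1.5 none of the 12 neutrophil markers was higher or lower in GFP/GFP lungs without overlap (12.6% and 26.9% of all genes were). The sum of the controls (682 to 1903 RPM) enclosed that of the mutants (939 to 1472 RPM). The 13 macrophage and monocyte markers summed to 786 and 1253 RPM in P1.5 +/+ and to 1352 and 1449 RPM in P1.5 GFP/GFP, and 5 of them were higher in GFP/GFP without overlap (12.6% of all genes were). At E18.5 they summed to 738 and 800 RPM in +/+ and to 215 and 550 RPM in GFP/GFP, and 7 were lower without overlap (9.46% of all genes were). In every library but replicate 1 of the E18.5 GFP/GFP group, most of the sum was Lyz2 (84.9 to 1115 RPM over all libraries). Type II alveolar cells make this lysozyme as well. In that replicate Lyz2 was at 84.9 RPM and the other 12 markers at 130 RPM. A sum without Lyz2 was formed after the data were seen. In it the other 12 markers stood at 184 and 179 RPM in E18.5 +/+, and at 130 and 152 RPM in E18.5 GFP/GFP. At P1.5 they stood at 245 and 250.2 RPM in +/+ and at 237 and 339 RPM in GFP/GFP, so the genotypes overlapped. Chil3 was at 85.5 RPM in replicate 1 of the P1.5 +/+ group, against 10.8 to 21.1 RPM in the other P1.5 libraries. Beside Lyz2, the markers higher in P1.5 GFP/GFP without overlap were Cd68, Cd14, Fcgr1 and Ly6c2, and none was lower without overlap. Squamous and basal epithelial markers (9 genes), a source of Il1f5 in skin, summed to 10.5 to 13.0 RPM at E18.5, to 16.2 and 122 RPM in P1.5 +/+ and to 20.7 and 14.1 RPM in P1.5 GFP/GFP. The part of each cell type in the members' values was not tested.

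With birth, the stages can be compared in controls, but the P1.5 +/+ libraries also entered the comparison that chose the members. The p-values of members here are therefore a description and are not read as tests. Of the 7 fitted members other than Il1a, none had an adjusted p under 0.05 in +/+ lungs (limma). Il18 and Il1r2 had an unadjusted p under 0.05. Of all genes 0.0576% were called (4 higher, and 5 or 0.032% lower), with 1079 higher and 771 lower at an unadjusted p under 0.05. Il1b, Il18 and Il1r2 were higher at P1.5 without overlap, as was Il1f5 below the filter through a difference in depth alone, and Il1r1 and Il1rap were lower. Over all genes 27.4% were higher and 28.2% lower without overlap, and 42.9% had a higher mean, as 7 of the 10 members did. The median difference of the 10 members was 0.33, against -0.15 for all genes. Without replicate 1 of the P1.5 +/+ group Il1a differed by 2.26 and Il1rn by 0.71, where they differed by 0.37 and 0.24 with it.

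In GFP/GFP lungs the stages differed more widely with all 8 libraries, over the whole transcriptome and in this family. Over the transcriptome this depended on single libraries, as did the number of calls. The median difference of all genes with birth in +/+ was -0.15, but -0.47 without replicate 2 of the P1.5 +/+ group and 0.17 without replicate 1. In GFP/GFP it was -0.46, and between -0.57 and -0.33 with each GFP/GFP library left out. Of all genes 4.55% were called (252 or 1.61% higher, and 459 or 2.94% lower). The members' values are a description, since the P1.5 GFP/GFP libraries chose them. The median difference of the 10 members was 1.495, against -0.46 for all genes. Of the 10 members 7 had a higher mean (36.1% of all genes did), 6 were higher without overlap (18.7% of all genes) and 1 lower (48.5% of all genes). Il1f5 is 1 of the 6 through a difference in depth, since it had no reads in replicate 1 of the P1.5 GFP/GFP group or in either E18.5 mutant library. Beside the +/+ values, Il1b was at 6.88 and 1.66, Il1rn at 3.79 and 0.24, Il1a at 5.13 and 0.37, Il33 at 1.07 and 0.28, Il18 at 0.52 and 1.21, and Il1r2 at 4.02 and 3.83 on the log2 scale in GFP/GFP and +/+ lungs. The values of the receptors were -0.83 and -1.30 for Il1r1 and -1.33 and -1.10 for Il1rap. Without replicate 1 of the E18.5 GFP/GFP group the mutant values were 4.91 for Il1b, 2.69 for Il1rn, 4.38 for Il1a, 0.13 for Il18, -0.51 for Il1r1 and -0.72 for Il1rap. The difference between these changes was not tested.

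Genes that act around the family were followed in 5 lists with 56 genes, of which 47 passed the filter. The lists were written with results of these data known, so their P1.5 values are a description. P-values printed for list genes at P1.5 come from the fit and are not read as tests. No list gene was called at E18.5, at P1.5 or with birth in +/+ lungs, with 2, 8 and 6 at an unadjusted p under 0.05 (limma). At E18.5 9 were higher and 9 lower in GFP/GFP without overlap (26.5% and 9.46% of all genes). At P1.5 14 were higher and 3 lower (12.6% and 26.9% of all genes), and with birth in +/+ 14 were higher and 14 lower (27.4% and 28.2% of all genes).

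Genes that IL-1 is known to induce (16, all fitted) stood out at P1.5 by their size. In GFP/GFP lungs 13 had a higher mean (38.8% of all genes), 9 were higher without overlap (12.6%) and none lower (26.9%), and their median difference was 2.47, against -0.20 for all genes, but none was called. Saa3, an acute phase protein, had 489 and 77 reads in P1.5 +/+ and 9766 and 39931 in P1.5 GFP/GFP (6.33, SE 1.25, adjusted p = 0.217, limma). Ccl2, a chemokine that draws monocytes, had 4 and 18 reads against 86 and 459 (4.21, SE 0.90, adjusted p = 0.249, limma). Cxcl2, a chemokine that draws neutrophils, had 8 and 6 reads against 74 and 266 (4.0, SE 0.63, adjusted p = 0.152, limma). In each of these genes the higher mutant library was replicate 2, which also had the most Il1a and Il1b. These genes also answer to other signals, and their dependence on IL-1 was not tested.

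Before birth the same list gave 3 genes higher and 4 lower in GFP/GFP without overlap (26.5% and 9.46% of all genes), and a median of -0.15 against 0.09 for all genes. Lcn2, an iron-withholding defence protein, had 1731 and 1922 reads in E18.5 +/+ and 189 and 974 in E18.5 GFP/GFP (-2.10, SE 0.79, adjusted p = 0.9998, limma). Saa3 had 225 and 159 reads against 12 and 126 (-2.29, SE 1.25, adjusted p = 0.9998, limma). Without replicate 1 of the E18.5 GFP/GFP group the differences were -0.74 for Lcn2 and -0.42 for Saa3. Il6 differed in the other direction, with 2 and 1 reads against 8 and 4, near the limit of detection. With birth in +/+ lungs Cxcl2 (2.96) and Il6 (2.76) had higher means, from few reads, and Nos2, the inducible nitric oxide synthase, a lower one (-2.01, SE 0.60, adjusted p = 0.298, limma), which was -1.18 without replicate 1 of the P1.5 +/+ group.

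From E18.5 to P1.5 in GFP/GFP lungs the values of 5 target genes, named from this same comparison and so given without a test, were 7.05 (SE 0.63) for Cxcl2, 9.33 (SE 1.25) for Saa3, 5.62 (SE 0.79) for Lcn2, 3.81 (SE 0.77) for Cxcl1 and 1.55 (SE 0.34) for Icam1. Cxcl1 is a neutrophil chemokine and Icam1 an adhesion molecule for leukocytes.

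**Figure D5:**
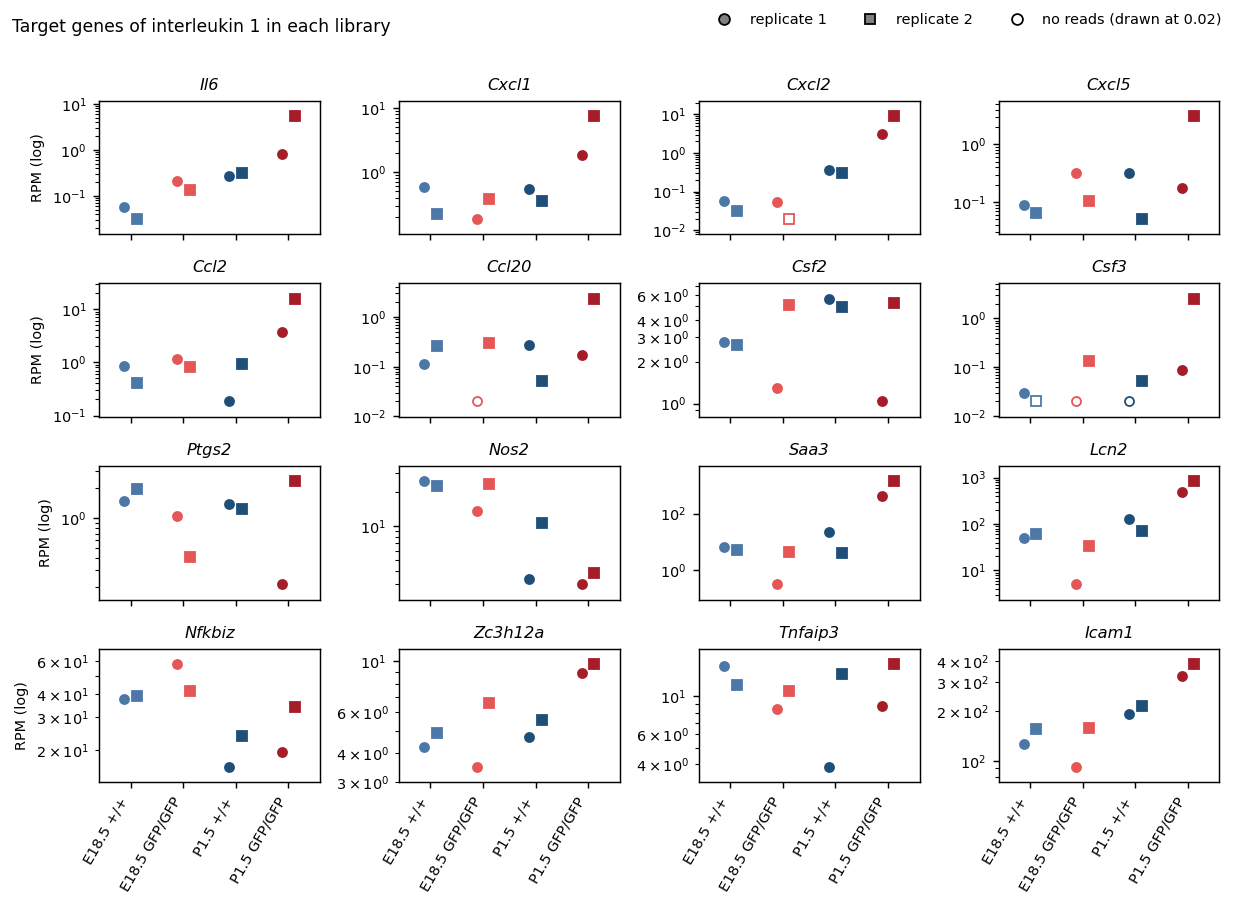
RPM (log axis, with its own scale in each panel) of the 16 target genes in each library, with circles for replicate 1, squares for replicate 2 and open symbols at 0.02 for libraries without reads. In Saa3, Ccl2, Cxcl1, Cxcl2 and Il6 both P1.5 GFP/GFP libraries sit above both P1.5 +/+ libraries, whereas in Ptgs2 they lie on either side of them.

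The intracellular signalling genes (18, of which 17 were fitted) differed little between genotypes. Their median difference at P1.5 was 0.04, against -0.20 for all genes. Myd88, the adaptor of the receptors, was higher in P1.5 GFP/GFP lungs without overlap (1.07, SE 0.41, adjusted p = 0.412, limma), as were the ligase Traf6 (0.83, SE 0.37, adjusted p = 0.466) and Tollip (0.44, SE 0.33, adjusted p = 0.685). Without replicate 2 of the P1.5 GFP/GFP group Myd88 was at 0.69 and Tollip at 0.091. With birth in +/+ lungs 9 were lower and 3 higher without overlap (28.2% and 27.4% of all genes). Nfkb1 (-1.38), Tab3 (-0.95) and the kinase Map3k7 (-0.89) were among the lower ones, and none passed the test. Without replicate 1 of the P1.5 +/+ group Nfkb1 was at -0.16 and Map3k7 at -0.39, and without replicate 2 Nfkb1 was at -2.59 (adjusted p = 0.0322, limma) and Map3k7 at -1.39. At E18.5 Ikbkb (0.52), Tab1 (0.36) and Tollip (-0.14) did not overlap, and Ikbkb was at 0.17 without replicate 1 of the GFP/GFP group.

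Genes of processing and release (11, of which 8 were fitted) were mostly alike in the genotypes at P1.5, where Capn2 (-0.68, SE 0.31) and Pycard, the inflammasome adaptor (0.38, SE 0.35), did not overlap. Casp1, which cleaves the precursors of IL-1β and IL-18, had 121 and 115 reads in E18.5 +/+ and 42 and 55 in E18.5 GFP/GFP (-1.31, SE 0.56, unadjusted p = 0.0504, adjusted p = 0.9998, limma). Casp4 (-1.01) and Capn2 (-0.36) were also lower there without overlap. Capn2 was at -0.23 at E18.5 without replicate 1 of the GFP/GFP group, and at -0.43 at P1.5 without replicate 2 of the +/+ group. With birth in +/+ lungs Casp8 (-1.30) was lower and Pycard (0.38) higher, and Casp8 was at -0.066 without replicate 1 of the P1.5 +/+ group and at -2.53 (adjusted p = 0.0216, limma) without replicate 2.

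Other members of the family completed the lists. Il18bp, which traps IL-18, had 30 and 38 reads in E18.5 +/+ and 103 and 94 in E18.5 GFP/GFP (1.53, SE 0.49, unadjusted p = 0.0152, adjusted p = 0.817, limma), and its P1.5 libraries overlapped. Il1f9, an IL-36 ligand, was higher at P1.5 than at E18.5 in +/+ lungs (39 and 25 reads, then 87 and 68, with a difference of 1.97, SE 0.40, adjusted p = 0.132, limma) and lower in P1.5 GFP/GFP than in P1.5 +/+ (-0.84, SE 0.40, adjusted p = 0.493). Il1f6, Il1f8 and Il1f10 had 3 reads or fewer in every library. Of the receptors outside the members, Il18r1 was lower in P1.5 GFP/GFP lungs without overlap (-0.68, SE 0.36, adjusted p = 0.543, limma) and Il18rap, its partner, was higher (0.85, SE 0.48, adjusted p = 0.573). Il18r1 was at -0.29 without replicate 2 of the P1.5 +/+ group and at -1.07 without replicate 1, and Il18rap at 0.52 without replicate 2 of the P1.5 GFP/GFP group. At E18.5 Sigirr (0.43) and Il18r1 (0.37) were higher without overlap, each at 0.24 without 1 of the GFP/GFP libraries (replicate 2 for Sigirr and replicate 1 for Il18r1). With birth in +/+ lungs Il1rl2 (-1.99) was lower (-0.87 without P1.5 replicate 1), and Sigirr (0.89) and Il18rap (0.88) were higher.

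The genes whose log2 RPKM followed a member most closely over the 8 libraries were found by the root-mean-square difference after centring each gene on its own mean. For Il1b they were Itih4 (0.43), Ly6i (0.64), Serpina3f (0.84), Lcn2 (0.91) and Mcpt4 (0.96), and for Il1a Ccl4 (0.76), Fbp1 (0.77), H2-Ab1 (0.79), Ly6d (0.80) and Ly6f (0.84). For Il1rn they were Spink5 (0.42), Plac8 (0.43), C1qtnf2 (0.45), Cd52 (0.46) and Slamf9 (0.47). For the steadier Il33 they were Gcnt2 (0.20), Id4 (0.23), Gpr133 (0.23), Gda (0.24) and Anxa1 (0.24). No member was among the nearest genes of another.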

How the data were processed

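Total lung RNA of 8 libraries was sequenced after preparation with a directional kit. The paper names alternative Illumina sequencers and does not say which library ran on which. The authors trimmed the reads with Trim Galore 0.4.0, mapped them to mm10 with TopHat2 2.1.1 (CASAVA 1.8 is also named in the submitters' processing notes), and quantified genes in SeqMonk. What the authors deposited is log2 RPKM for each library. The values themselves show that the length is the whole span of a gene, introns included, and that 0 reads were set to 0.9 read. Unspliced RNA therefore counts towards a gene, and long genes with many introns have low RPKM. Whole reads were recovered from these steps within a tolerance of 0.02. Intervals and floors cover counting error only.

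Groups came from the genotype and stage in the labels. Genes averaging 0.05 RPKM or more (15627 of 25965) entered a limma fit (3.58.1, R 4.3.3) on the deposited log2 values, 1 mean per group over all 8 libraries with a trend in the prior, two-sided, with Benjamini-Hochberg adjustment and a threshold of 0.05. Exon lengths came from GENCODE M21 within the counted span, and promoters from RefSeq. Tables and figures used Python 3.11.15, pandas 2.3.3, numpy 2.4.6, scipy 1.17.1 and matplotlib 3.10.9. The fit was tested on simulated data. The members and lists were chosen with earlier results of these data known. Named were the members, list genes called or, per comparison, up to 3 per list with the largest difference without overlap, marker sums, and the 5 nearest genes of Il1a, Il1b, Il1rn and Il33. Reads quoted for named genes in a comparison are of that comparison. Alternatives were a replicate block, voom on recovered reads, fits to 1 stage, median centring or quantile normalization, pseudocounts of 0.1 and 1 RPKM, a filter at 0.5 RPKM or none, means taken before the logarithm, and fits with 1 library removed. Counts without the libraries that stood apart were added after the data were seen.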

Additional observations from a re-analysis of the deposited data

Results flagged for a closer look

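Il1a and Il1b were lower in all E18.5 GFP/GFP libraries than in the E18.5 +/+ libraries and higher in all P1.5 GFP/GFP libraries than in the P1.5 +/+ libraries. The genotype difference at P1.5 minus that at E18.5 was 4.76 for Il1a and 5.22 for Il1b on the log2 RPKM scale. This difference between stages was not tested, and for Il1a it rests on 10 reads in all at E18.5. For Il1b the E18.5 difference was -2.77, but -0.81 without replicate 1 of the E18.5 GFP/GFP group. That library had 1 Il1b read and was among those that stood apart.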

How the results depend on the processing

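With an expression filter of at least 0.5 RPKM fewer members were tested, and the number with a higher P1.5 mean was 3 rather than 6 of those fitted. With a replicate block within stage 1 list gene was called at P1.5 (Ccl2, adjusted p = 0.0109, limma) where none was without it. Ccl2 was named from this same comparison, so that call is a description. The block changed no call of a member at E18.5 or with birth in +/+ lungs. Same-numbered libraries deviated together (r = 0.23 at E18.5 and 0.21 at P1.5 over 15627 genes, across genes that are not independent), but the numbers are not stated to pair animals. Replicate 1 was female and replicate 2 male in every group, so the block and this shared deviation cannot be told apart from sex. With each library left out in turn, calls with birth in +/+ ranged from 0 to 2 among the members and from 0 to 7 among list genes, the highest without P1.5 +/+ replicate 2.

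Directions turned in 5 cases: Il1rap at E18.5 was 0.0075 with a pseudocount of 1 RPKM, Il1rap at P1.5 was 0.14 after quantile normalization, Il1r2 at P1.5 was -0.055 with a pseudocount of 1 RPKM and -0.37 as a ratio of arithmetic means, and Il1a with birth in +/+ was -0.23 with voom. With each library left out, ranges crossed 0 at E18.5 for Il18 (-0.46 to 0.32), Il1r1 (-0.048 to 0.61) and Il1rap (-0.65 to 0.56), at P1.5 for Il33 (-0.27 to 0.37), Il1r1 (-0.29 to 1.79), Il1rap (-0.60 to 0.039) and Il1r2 (-1.26 to 2.17), and with birth in +/+ for Il1a (-1.51 to 2.26) and Il1rn (-0.22 to 0.71). Il1a, Il1b and Il1rn at P1.5 kept their direction under each alternative run, between 1.33 and 5.10, 1.49 and 3.40, and 1.73 and 2.66 with each library left out, though a pseudocount of 1 RPKM brought Il1a to 0.18.

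Centring libraries on their median gene moved the median difference of all genes from 0.09 to -0.12 at E18.5, from -0.20 to 0.0031 at P1.5, from -0.15 to 0.12 with birth in +/+ and from -0.46 to 0.21 with birth in GFP/GFP lungs, where the calls went from 252 higher and 459 lower to 849 and 430. With voom they were 62 and 67, and with the replicate block 1139 and 3021. Over the alternatives for all 8 libraries the calls among all genes ran from 0 to 22 at E18.5, from 0 to 21 at P1.5, from 0 to 105 with birth in +/+ and from 129 to 4160 with birth in GFP/GFP. With 1 library left out they ran from 0 to 1, 0 to 24, 0 to 2166 and 0 to 4874, the highest of the last 3 without a P1.5 +/+ library. With 2 libraries per group and few reads on Il1a and Il1f5, smaller differences were not detectable.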
